A study of Mus musculus with 8 samples.

Results

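IGHD4-1 is a diversity (D) gene of the mouse antibody heavy-chain locus, and the cells described here are those whose heavy-chain junction carries its name. They were taken from paired cells, meaning barcodes with exactly 1 heavy and 1 light receptor contig, in which the D gene of the heavy contig was listed as IGHD4-1. Of 40603 paired cells, 885 met this rule, 442 labelled WT and 443 labelled KO. A further 8395 paired cells carried another D name, and 31323 carried no D name at all.

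The cells were prepared as germinal-centre B cells of the spleen. They were enriched on beads carrying peanut agglutinin on day 10 after immunization and then sorted by flow cytometry. Receptors were sequenced by droplet single-cell RNA profiling in 4 libraries of the Dtx1+/+ genotype (WT) and 4 of the Dtx1-/- genotype (KO), lacking Deltex-1, a ubiquitin ligase linked to Notch signalling. Each library held 4585 to 5712 paired cells and 104 to 118 IGHD4-1 cells. The sources used here do not name the immunogen, the strain or age of the mice, or how the Dtx1 allele was made, and they give no number of mice. Receptor contigs do not measure Dtx1 itself.

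Libraries of a genotype behaved as loadings of 1 pool of cells. IGHD4-1 clonotypes, defined by heavy and light V genes and CDR3 sequences, numbered 70 to 87 per library. A pair of libraries of the same genotype shared 15 to 25 of them (median 18.5, 12 pairs), whereas a pair of different genotypes shared 0 to 1 (median 0.5, 16 pairs). Every SD and p-value below therefore measures the spread between loadings and compares 2 pools, not genotypes across animals. Among paired cells, 978 of 39615 barcodes occurred in more than 1 library; among IGHD4-1 cells this was so for 2 of 883 barcodes, and neither of these had the same heavy CDR3 in both libraries.

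A heavy-chain variable region is assembled by joining a D to a J segment and then a V segment to the joined DJ. Nucleases trim the ends, terminal transferase adds untemplated bases, and the joint forms the centre of the third complementarity-determining region (CDR3), the part of the receptor most often in contact with antigen. Germinal-centre B cells then mutate the joined region, and many switch from IgM to another class.

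IGHD4-1 lies on chromosome 12 at chr12:113430528-113430538 (mm10, GRCm38.p6, RefSeq), where RefSeq annotates it as a D segment. Its 11 bp sit 694 bases from IGHJ1, and the next D segment, IGHD3-2 (chr12:113448214-113448229), is 18380 bases from IGHJ1. The letters below are shown because they decide which bases of a junction can be credited to D and which to J. They were read from the deposited junctions: the D piece is the most common 11-base piece between V and J in IGHD4-1 clones (63 of 404 clones hold it whole, against 49 for the next piece), and the J letters are those inside CDR3. Capitals in the J lines mark the longest stretch each shares with the D piece.
IGHD4-1: ctaactgggac
IGHJ1: ctACTGGtacttcgatgtctgg
IGHJ2: aCTActttgaCTActgg
IGHJ3: cCTGGtttgcttaCTGG
IGHJ4: attactatgctatGGACtactgg
The stretch shared with IGHD4-1 was 5 bases in IGHJ1, 4 in IGHJ3 and IGHJ4 and 3 in IGHJ2.

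Most junctions named IGHD4-1 kept a long piece of the gene, but those joined to IGHJ1 often did not. With V and J letters matched first, 717 of 885 cells (81.0%) retained at least 6 IGHD4-1 bases, and 140 retained all 11. Of the 168 cells below 6 bases, 130 (77.4%) used IGHJ1. At least 6 bases were retained in 45.6% of IGHJ1 cells, against 89.5% of IGHJ2, 97.1% of IGHJ3 and 94.3% of IGHJ4 cells. When the letters shared with J were counted as D instead, 61 of the 168 cells reached 6 bases, all of them IGHJ1 cells.

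The D name in turn covered only some of the junctions that hold these letters. Of 199 paired cells with all 11 bases, 140 were named IGHD4-1 and 59 had no D name. Of 1314 cells with at least 8 retained bases, 579 were named IGHD4-1, 709 had no name and 26 had another D name. Within a clone, cells with identical heavy CDR3s were named alike in all 117 groups of 2 or more such cells that included an IGHD4-1 cell. Of the 132 clones of 2 or more cells with an IGHD4-1 cell, 95 had every cell named so, 37 included an unnamed cell and 3 a cell with another D name. What decides whether a junction is named was not tested.

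**Figure D1:**
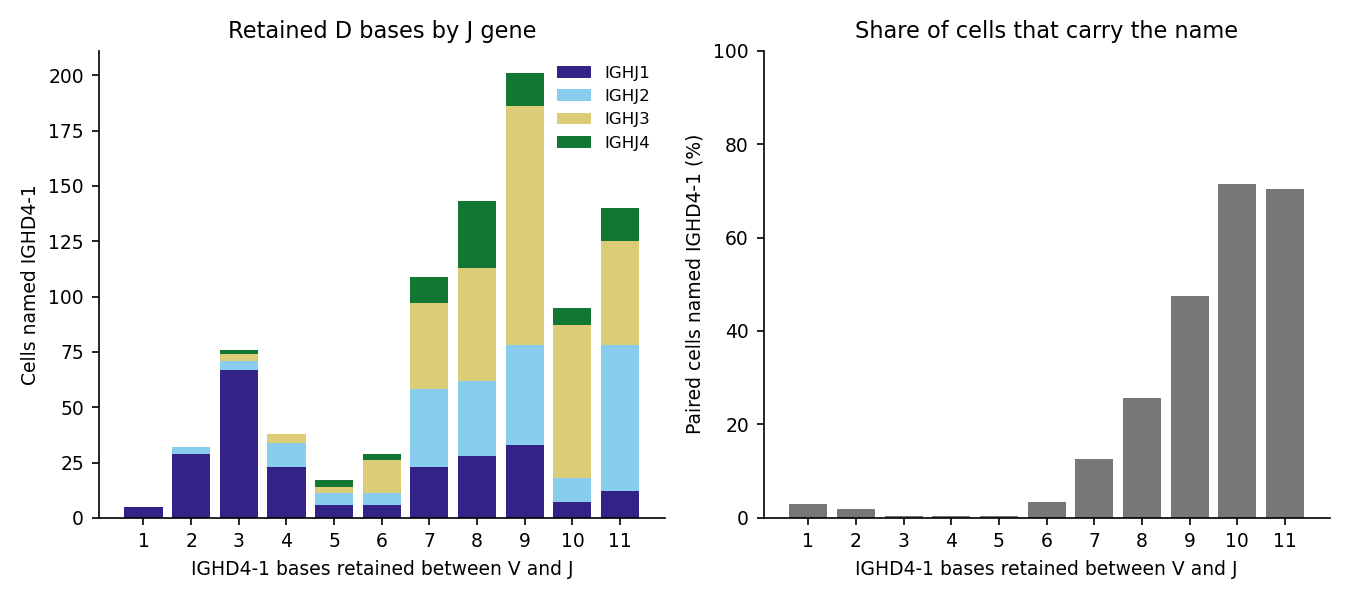
Left, IGHD4-1 cells (y axis) by the number of D bases retained between V and J (x axis), stacked by J gene; right, the percent of all paired cells with that many retained bases that carry the IGHD4-1 name. IGHJ1 cells fill the left part of the histogram, and the named share is 12.6% at 7 bases and 70.4% at 11 bases.

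IGHD4-1 took a slightly smaller share of the KO than of the WT pool. In WT libraries 1 to 4 it was 2.19, 2.49, 2.25 and 2.53% of paired cells, and in KO libraries 1 to 4 it was 1.97, 1.86, 2.11 and 2.18%. All 4 KO values lay below all 4 WT values, with means of 2.03 ± 0.15% (SD, n = 4) and 2.36 ± 0.17% (SD, n = 4). The Wilson 95% interval of a single library was wider than this gap, for example 1.81 to 2.64% in WT 1. With edgeR across all IGHD genes the log2 fold change was -0.22 ± 0.10 (SE; adjusted p = 0.0370), beside a median of 0.11 over the 8 IGHD genes tested. In that fit 6 of 8 IGHD genes passed, which is 75% (4 higher and 2 lower in KO, 50% and 25%), so a call on IGHD4-1 is near the background. The call was lost in several settings: with DESeq2 (adjusted p = 0.0592), with each clone counted once (edgeR adjusted p = 0.144), with cells of at least 6 retained bases (0.243), and without any of WT 1, 2 and 4 or KO 1, 2 and 3 (up to 0.161). Taken by sequence, with at least 8 retained bases whether named or not, the pools held 2.94 ± 0.30% (KO) and 3.60 ± 0.21% (WT), a log2 fold change of -0.30 (edgeR adjusted p = 0.00548). That fit counted cells and was not repeated with each clone counted once, so the part of clone size in it was not tested.

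Among D-named cells IGHD4-1 ranked behind 2 other genes. IGHD1-1 made up 36.4% of D-named cells on average over libraries, IGHD2-4 13.3% and IGHD4-1 9.66%. IGHD2-6 and IGHD2-3, at 9.39 and 9.44%, were within the spread of IGHD4-1 (SD 1.26, n = 8). By the root-mean-square difference of log2 shares over the 8 libraries, the profiles most like that of IGHD4-1 were IGHD2-8 (0.19), IGHD1-1 (0.21) and IGHD2-6 (0.23), of 7 other genes compared. This measure does not ask for the same direction between the pools. Mean shares of D-named cells in WT and KO were 10.6 and 8.68% for IGHD4-1 and 10.7 and 8.10% for IGHD2-6. They were 8.55 and 8.47% for IGHD2-8, and IGHD1-1 went the other way, at 35.3 and 37.5%.

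J use was the first feature that set IGHD4-1 apart from other D genes. IGHJ3, the J of 339 IGHD4-1 cells in 141 clones, took 38.7, 44.0, 39.4 and 44.8% of them in WT libraries 1 to 4 and 44.0, 33.0, 29.7 and 32.7% in KO libraries 1 to 4. IGHJ3 was more frequent with IGHD4-1 than with other D genes in 8 of 8 libraries (38.3 against 29.2%; difference 9.14 ± 5.42 percentage points, SD; exact sign-flip permutation p = 0.0078, adjusted 0.0137 over 14 values). By sequence with at least 8 bases the difference was 4.45 points (exact permutation p = 0.0469). The pools overlapped in the IGHJ3 share. IGHJ4 was the rarest partner, with 88 cells in 52 clones, at 4.59 to 13.2% of IGHD4-1 cells. Its share was lower than with other D genes in all 8 libraries (9.95 against 26.3%; difference -16.3 ± 4.3 points; exact permutation p = 0.0078, adjusted 0.0137). Here 0.0078 is the smallest p that sign flips over 8 libraries allow.

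IGHJ1, the J gene nearest to IGHD4-1, was also more frequent with IGHD4-1 as named, but that order depended on how the shared letters were treated. It took 28.3% of WT and 25.7% of KO IGHD4-1 cells (27.0% over all 8 libraries), above the 16.8% of other D cells in all 8 libraries (difference 10.1 ± 4.2 points; exact permutation p = 0.0078, adjusted 0.0137). In cells with at least 6 retained bases the IGHJ1 share was 15.2%, a difference of -1.61 points from other D genes (exact permutation p = 0.141). In cells taken by sequence with at least 8 bases the difference was -5.86 points (exact permutation p = 0.0234). Cells taken by sequence include unnamed ones, whereas the cells set against them all carried another D name and under 8 such bases. With shared letters counted as D it was 21.8%, higher in 7 of 8 libraries (difference 4.97 points, exact permutation p = 0.0312). Under the same 6-base rule, IGHJ3 and IGHJ4 stood at 46.1 and 11.6%, on the same side of other D genes as before.

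IGHJ2 was the only J gene whose shares did not overlap between the pools as named. Its share of IGHD4-1 cells was 22.6, 19.8, 18.3 and 14.7% in WT libraries 1 to 4 and 24.8, 32.1, 29.7 and 36.4% in KO libraries 1 to 4. The groups did not overlap, at 30.7 ± 4.8% in KO and 18.8 ± 3.3% in WT, and p was 0.0286 by the exact permutation test, the smallest the design allows (adjusted 0.08 over 14 values). A single KO clone carried much of this: without its 33 cells the KO share was 25.2 ± 3.1% (exact permutation p = 0.0571). With each clone counted once the difference was 2.95 points, and leaving out any of the 4 WT libraries ended the unadjusted call. Among cells taken by sequence, with at least 8 retained bases, the sign turned: KO minus WT was -4.40 points for IGHJ2 (exact permutation p = 0.114), while it was 11 for IGHJ1 and -9.70 for IGHJ3 (exact permutation p = 0.0286 each). As named, IGHJ1, IGHJ3 and IGHJ4 shares differed between the pools by -2.61, -6.86 and -2.39 points, with exact permutation p of 0.371, 0.114 and 0.229.

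**Figure D2:**
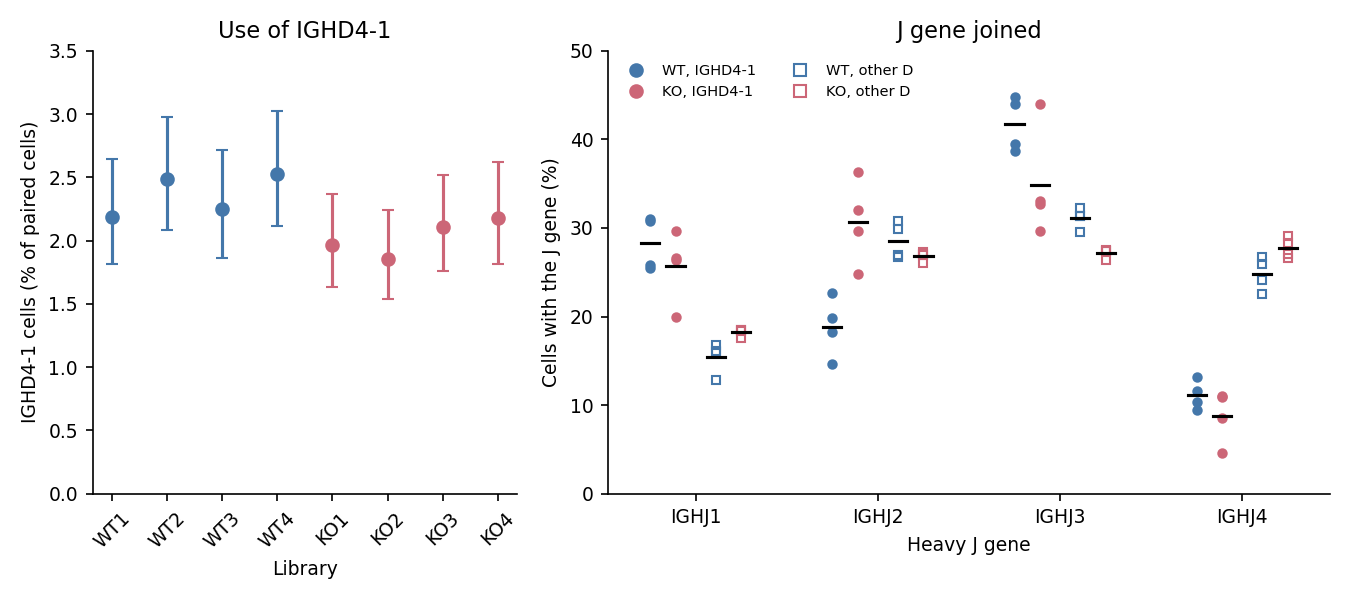
Left, IGHD4-1 cells as a percent of paired cells in each library with Wilson 95% intervals, from 1.86% in KO 2 to 2.53% in WT 4; right, the percent of cells joined to each heavy J gene, for IGHD4-1 (filled circles) and other named D genes (open squares), 4 libraries a group with the mean as a bar. IGHJ4 values of IGHD4-1 lie at or below 13.2%, under every other-D library.

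A D gene can be read in 3 frames, and each frame of IGHD4-1 writes different residues. The pieces are shown because the frame sets what the gene adds to the receptor. Capitals mark the codons of each frame, in turn leucine, threonine and glycine, then asparagine, tryptophan and aspartate, then a stop codon, leucine and glycine.
Leucine frame: CTAACTGGGac
Asparagine frame: ctAACTGGGAC
Stop frame: cTAACTGGGAc
Of the 717 cells with at least 6 retained bases, 412 (57.5%, 188 clones) used the asparagine frame, 255 (35.6%, 113 clones) the leucine frame and 50 (7.0%, 37 clones) the stop frame. Of the 50, 0 kept the whole stop codon, since only productive contigs were listed. The asparagine frame took 55.7, 61.5, 65.0 and 66.3% in WT libraries 1 to 4 and 56.2, 51.2, 44.8 and 60.2% in KO libraries 1 to 4. These ranges overlap (62.1 ± 4.7 and 53.1 ± 6.7%; exact permutation p = 0.0857, adjusted 0.15). Taken by sequence, the difference was -13.0 points (exact permutation p = 0.0286), and without the IGHV11-2 clone of the KO pool it was -3.75 points (exact permutation p = 0.514).

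Among junctions named IGHD4-1, trimming was uneven at the ends of the gene. In the same 717 cells the retained piece averaged 8.94 ± 0.15 bases in WT and 8.85 ± 0.10 in KO libraries (SD, n = 4). The V-facing end had lost 1.49 ± 0.20 and 1.51 ± 0.14 bases, and the J-facing end 0.562 ± 0.175 and 0.639 ± 0.099 bases. Bases credited to neither segment averaged 2.91 (WT) and 2.69 (KO) between V and D and 2.70 and 2.82 between D and J. No base stood between V and D in 121 cells (64 clones), none between D and J in 96 cells (68 clones), and none at either joint in 9 cells. By pool, no base stood between V and D in 8.91% of WT and 24.4% of KO cells, a difference that was not tested. V and J letters were assigned first, so a base that could be D or a neighbour was given to the neighbour. The share of cells named IGHD4-1 was 3.44% at 6 retained bases and 70.4% at 11, and 2219 cells with no D name also held at least 6. These lengths and losses therefore describe the named junctions, in which long pieces are favoured, and not every junction of the gene.

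CDR3s built on IGHD4-1 were short. Their mean length, the flanking cysteine and tryptophan included, was 12.4, 12.6, 12.7 and 12.7 residues in WT libraries 1 to 4 and 12.4, 12.2, 12.5 and 12.4 in KO libraries 1 to 4. Other D cells averaged 16.5 ± 0.1 residues, so the difference was -3.98 ± 0.27 residues, in the same direction in 8 of 8 libraries (exact permutation p = 0.0078, adjusted 0.0137). Bases between the V and J matches numbered 13.5 ± 0.4 with IGHD4-1 and 24.8 ± 0.5 with other D genes. The shortening was present with each J gene, from -3.46 residues with IGHJ3 to -4.36 with IGHJ1 (exact permutation p = 0.0078 each, adjusted 0.0104 over 16 values). Against all other paired cells, D named or not, the difference was -1.94 residues (exact permutation p = 0.0078). RefSeq lengths give a scale: 11 bp for IGHD4-1, 17 bp for IGHD2-4 and 23 bp for IGHD1-1. The rule that picked the cells by D name thus sets a short D against longer ones, and the p-values above do not test an open question. Cells with another D name were also longer than paired cells as a whole. Their median was 16 (WT) and 17 (KO) residues, against 14 for all paired cells of each pool. Between the pools the lengths were 12.4 ± 0.1 (KO) and 12.6 ± 0.1 (WT) residues (exact permutation p = 0.0571, adjusted 0.133).

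**Figure D3:**
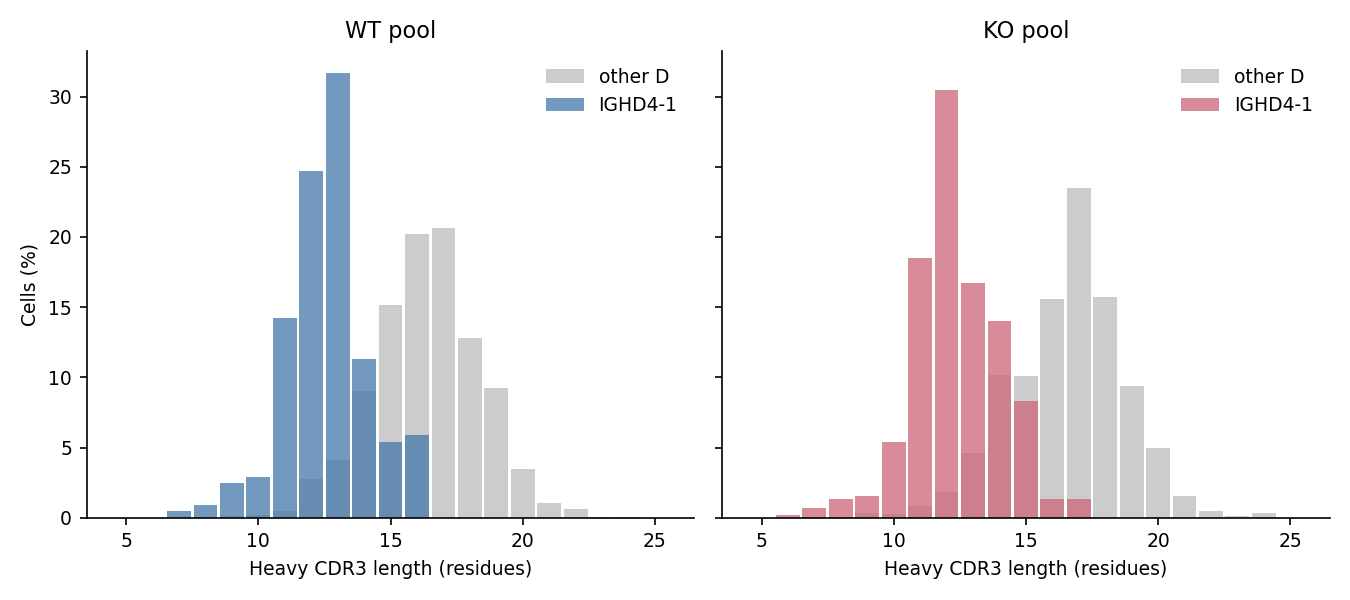
Percent of cells (y axis) by heavy CDR3 length in residues (x axis) for IGHD4-1 cells (colour) and cells with another D name (grey), in the WT pool (left) and the KO pool (right). The median IGHD4-1 length is 13 in WT and 12 in KO, against 16 and 17 for other D genes.

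The loops were rich in tryptophan and poor in tyrosine, a residue common in mouse heavy CDR3s. With the flanking cysteine and tryptophan left out, tryptophan was 7.25 to 8.35% of residues in IGHD4-1 loops and 1.62 to 2.05% in other D loops (7.68 against 1.88%; difference 5.80 ± 0.32 points, 8 of 8 libraries; exact permutation p = 0.0078, adjusted 0.0137). Tyrosine was 11.6 to 13% against 26.5 to 27.4% (difference -14.6 ± 0.4 points, lower in 8 of 8 libraries; exact permutation p = 0.0078, adjusted 0.0137). Neither range of IGHD4-1 overlapped that of other D genes. Against all other paired cells the tyrosine difference was -8.97 points (exact permutation p = 0.0078). Both differences were present with each of the 4 J genes (exact permutation p = 0.0078 each, adjusted 0.0104). The cells were picked by their D name, and the frames of IGHD4-1 write tryptophan but no tyrosine. Both differences thus come in part with the rule that picked the cells, and their p-values do not test an open question.

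Several other residues also stood apart. Threonine and asparagine, encoded by the leucine and the asparagine frame, were 5.74 and 4.63% with IGHD4-1 against 2.14 and 1.95% with other D genes, higher in 8 of 8 libraries, and serine was 2.60 against 8.56%, lower in all 8. Alanine (14.6 against 11.8%) and phenylalanine (8.19 against 5.55%), which no frame of IGHD4-1 encodes, were also higher in 8 of 8 libraries. Leucine and valine were higher, and isoleucine, methionine and glutamine lower, in all 8. Aspartate, encoded by the asparagine frame, was 10.1 against 9.15%, higher in 7 of 8. These residues were described and not tested. Glycine was 10.9 against 9.57% (difference 1.34 ± 0.38 points, 8 of 8 libraries; exact permutation p = 0.0078, adjusted 0.0137). The leucine and stop frames of IGHD4-1 write glycine, so this p-value carries the same limit as those of tryptophan and tyrosine. The glycine difference did not have the same direction with every J gene. It was 2.47 points with IGHJ3 (higher in 7 of 8 libraries; exact permutation p = 0.0234, adjusted 0.0268) and -1.57 with IGHJ1 (lower in 7 of 8; exact permutation p = 0.0156, adjusted 0.0192). It was 2.37 with IGHJ2 and -0.688 with IGHJ4 (exact permutation p = 0.102 and 0.234). With each clone counted once it was 0.347 points overall (exact permutation p = 0.117), and by sequence with at least 8 bases 2.84 points (exact permutation p = 0.0078).

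**Figure D4:**
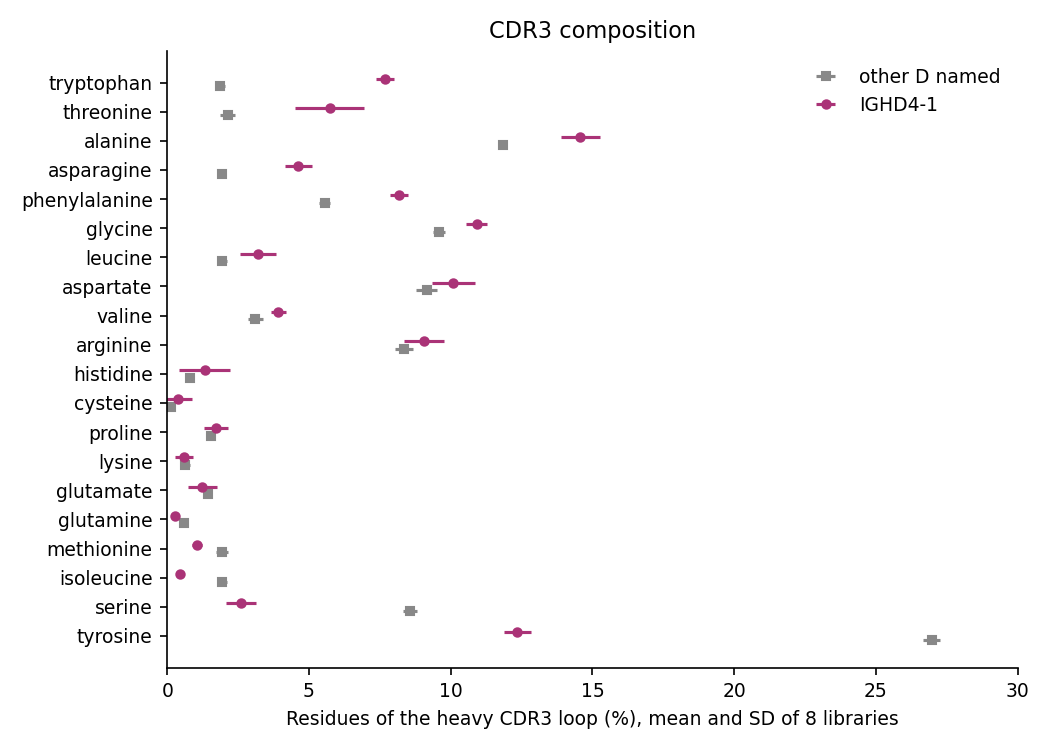
Percent of heavy CDR3 loop residues that are each amino acid (x axis), mean and SD of 8 libraries, for IGHD4-1 (circles) and other named D genes (squares), ordered by the difference. Tryptophan is farthest to the IGHD4-1 side (7.68 against 1.88%) and tyrosine farthest to the other (12.3 against 27.0%).

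IGHD4-1 was joined to 71 of the 97 IGHV genes found in paired cells, and its V partners differed from those of other D genes. In edgeR with the library as a block, 15 of 24 IGHV genes tested passed, or 62.5% (7 higher and 8 lower with IGHD4-1, 29.2% and 33.3%). A low-count filter over IGHD4-1 and other D cells chose the 24. IGHV7-3 (4.01% of IGHD4-1 against 0.319% of other D cells) and IGHV11-2 (3.83 against 0.0130%) did not enter. The counts of higher and lower genes thus depend on that filter. IGHV14-2 was the most enriched by p, at 4.87 ± 2.59% of IGHD4-1 cells against 0.823 ± 0.624% of other D cells, higher in 8 of 8 libraries (log2 fold change 2.65 ± 0.45, SE; adjusted p = 0.000294). IGHV1-55 stood at 6.01 against 2.36% (log2 fold change 1.32, edgeR adjusted p = 0.000915, 8 of 8 libraries). IGHV1-12 stood at 3.74 against 0.754% (2.21, edgeR adjusted p = 0.00162, 7 of 8 libraries).

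Lower partners included V genes that were common with other D genes, such as IGHV8-8. This gene made up 1.82% of IGHD4-1 cells and 10.5% of other D cells (log2 fold change -2.59, edgeR adjusted p = 0.000599), lower in 8 of 8 libraries. IGHV1-64 stood at 0.892 against 3.90% (-2.12, edgeR adjusted p = 0.000599), and IGHV1-26 at 1.79 against 4.49% (-1.31, edgeR adjusted p = 0.00162), each lower in all 8 libraries. IGHV8-8 and IGHV1-64 were absent from the IGHD4-1 cells of some libraries and passed the low-count filter through other D cells. The filter favoured such genes, and their p-values carry that limit. As a family, IGHV8 held 3.39% of IGHD4-1 cells and 15.1% of other D cells on average. With each clone counted once and the same filter rule, 11 of 16 genes passed (68.8%), and 10 genes (41.7% of the 24) passed both ways in the same direction. IGHV14-2, IGHV1-64, IGHV8-8, IGHV1-55 and IGHV1-26 were among them, with edgeR adjusted p from 0.000453 to 0.0486. Their log2 fold changes were 1.66, -1.70, -2.19, 1.17 and -0.75 in that order, and IGHV1-12 was too sparse for that fit. IGHV1-9, not called on cells (-0.21, edgeR adjusted p = 0.579), was lower with each clone counted once (-1.01, edgeR adjusted p = 0.00650).

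**Figure D5:**
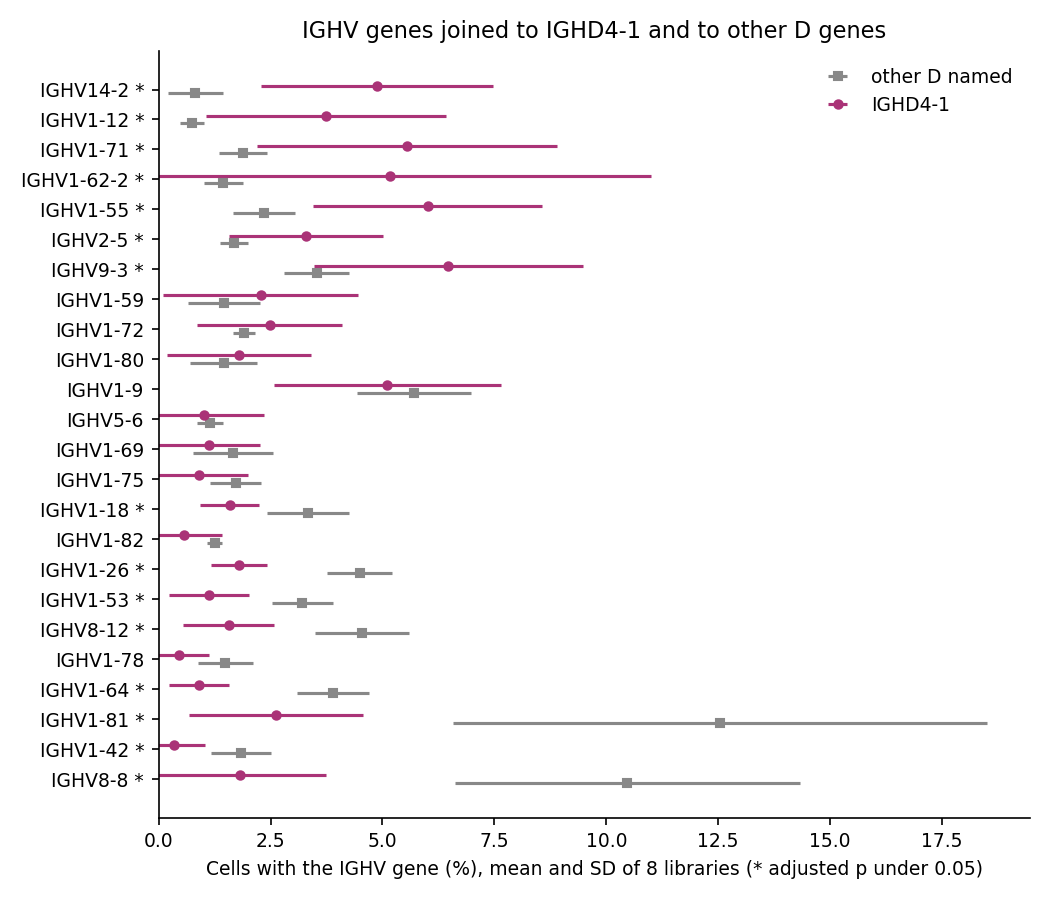
Percent of cells with each of the 24 tested IGHV genes (x axis; mean and SD of 8 libraries, bars cut at 0) among IGHD4-1 cells (circles) and other D cells (squares), ordered by log2 fold change, with an asterisk where the edgeR adjusted p is under 0.05. IGHV14-2 is at the top (4.87 against 0.823%) and IGHV8-8 at the bottom (1.82 against 10.5%).

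The most used partners were in part single clones. IGHV9-3 came first with 58 cells in 28 clones (30 WT and 28 KO cells), and IGHV1-55 second with 53 cells in 24 clones. IGHV1-71 and IGHV1-62-2 had 49 and 46 cells, of which 28 and 29 were 1 clone each; the V letters of these 2 genes differed at 0 of 285 bases from framework 1 to framework 3, so the names are uncertain and both are best read together (81 WT and 14 KO cells). IGHV1-9 held 45 cells, 24 of them in 1 clone. IGHV7-3 had 4 WT and 32 KO cells in 15 clones. IGHV11-2 had 1 WT and 33 KO cells, and the 33 were 1 clone.

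Light-chain partners overlapped with the same clones. The most frequent light V gene, a member of the IGKV2 family, had 86 WT and 17 KO cells, 77 and 12 of them with IGHV1-71 or IGHV1-62-2. IGKV14-111 had 26 WT and 27 KO cells in 28 clones, IGKV4-59 20 and 29, and IGKV12-46 24 and 13. IGKV6-15 had 2 WT and 44 KO cells, 33 of the latter in the IGHV11-2 clone, and IGKV2-109 had 4 and 30. Lambda chains were carried by 4.72, 6.03, 3.85 and 9.48% of IGHD4-1 cells in WT libraries 1 to 4 and by 2.75, 2.83, 3.39 and 0% in KO libraries 1 to 4. The groups did not overlap (6.02 ± 2.48 and 2.24 ± 1.52%; exact permutation p = 0.0286, adjusted 0.08). That unadjusted call ended without WT 4 or any of the 4 KO libraries (p up to 0.0857, exact permutation), and with each clone counted once the difference moved from -3.78 to -5.72 points. Against other D cells the lambda share was 4.13 to 2.49% (higher in 7 of 8 libraries; exact permutation p = 0.0859, adjusted 0.12).

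Most IGHD4-1 cells expressed IgM. IGHM, the IgM constant gene, was listed for 415 of 442 WT and 404 of 443 KO cells, and IGHD, the IgD constant gene, for 2 WT and 0 KO cells. A count of 0 of 443 allows a share of up to 0.677% (3 counts; this bound, like every interval here, covers counting error only). Of IGHM cells with a V germline, 68.3% of 413 in WT and 82.7% of 369 in KO were unmutated. As a share of all IGHD4-1 cells, those without a germline included, these were 282 of 442 (63.8%) and 305 of 443 (68.8%). Unmutated IgM was the marker used here for follicular or naive B cells, so most IGHD4-1 cells carried it. By the same count 65.4% of WT and 80.2% of KO other D cells also carried it, so the marker was not particular to IGHD4-1. The identity of IGHD4-1 cells as germinal-centre B cells rests on the sort and was not tested. Switched cells made up 2.83, 7.76, 7.69 and 4.31% of cells in WT libraries 1 to 4 and 12.8, 12.3, 4.24 and 6.36% in KO libraries 1 to 4. These ranges overlap (5.65 ± 2.47 and 8.93 ± 4.28%; exact permutation p = 0.257, adjusted 0.3), and the difference from other D cells was 0.890 points (exact permutation p = 0.516).

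Among switched cells, the IgG1 shares of the pools did not overlap. IGHG1, the IgG1 constant gene, took 33.3, 55.6, 50 and 40% of switched IGHD4-1 cells in WT libraries 1 to 4 and 100, 100, 80 and 85.7% in KO libraries 1 to 4. Every KO value was the higher, at 91.4 ± 10.2% in KO and 44.7 ± 9.95% in WT (exact permutation p = 0.0286, adjusted 0.08). Other D cells had the same order, at 76.7 ± 1.8% in KO (218 of 285 switched cells) and 45.3 ± 5.9% in WT (112 of 247), and whether the gap differed from theirs was not tested. The IGHD4-1 shares rest on 25 WT and 39 KO switched cells; 14 of the 37 KO IGHG1 cells belonged to 1 clone. In cells with at least 6 retained bases the difference was 34.2 points (exact permutation p = 0.143). The other classes had 6 and 1 (IGHG2B), 2 and 0 (IGHG2C) and 5 and 1 (IGHG3) cells in WT and KO. IGHA and IGHE, the IgA and IgE constant genes, had 0 cells in both pools, which allows up to 0.679% of WT and 0.677% of KO cells.

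Mutation was low in both pools, and the pools did not overlap. The mean percent of IGHV nucleotides that differed from the germline was 0.417, 0.541, 0.476 and 0.359 in WT libraries 1 to 4 and 0.211, 0.209, 0.111 and 0.219 in KO libraries 1 to 4. Every KO library lay below every WT library (0.187 ± 0.051 and 0.448 ± 0.078%; exact permutation p = 0.0286, adjusted 0.08). The difference of -0.261 points was -0.139 by sequence with at least 8 bases, with the same exact permutation p. Cells with no mutation were 67.9, 57.9, 62.5 and 69.8% in WT libraries 1 to 4 and 76.7, 75.8, 84.5 and 74.0% in KO libraries 1 to 4. Again the groups did not overlap (64.5 ± 5.4 and 77.7 ± 4.7%; exact permutation p = 0.0286, adjusted 0.08). The call on unmutated cells ended without KO 3 and in cells with at least 6 retained bases (difference 9.73 points, exact permutation p = 0.0857). By sequence with at least 8 bases the unmutated difference was 4.12 points (exact permutation p = 0.171), and with each clone counted once 22.3 points (exact permutation p = 0.0286). No V germline was available for 2 WT and 35 KO cells, the 33 of the IGHV11-2 clone included, which enter neither value. In all, 5 of 14 values compared between the pools reached the smallest p of 0.0286 by the exact permutation test (IGHJ2, IGHG1, mutation, unmutated and lambda shares), and 0 of 14 had an adjusted p under 0.05.

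No difference in mutation from other D cells passed the test. Other D cells had 0.409 ± 0.025% in WT and 0.186 ± 0.009% in KO, and the within-library difference was 0.0204 ± 0.0539 points (higher in 6 of 8 libraries; exact permutation p = 0.305, adjusted 0.374). Unmutated cells differed by -3.24 points (lower in 6 of 8 libraries; exact permutation p = 0.0547, adjusted 0.0851). Mutated IGHD4-1 cells numbered 156 of 440 in WT, with a mean of 3.60 mutations and at most 12, and 90 of 408 in KO, with a mean of 2.4 and at most 7. IGHM cells averaged 0.375 ± 0.079% (WT) and 0.147 ± 0.028% (KO). The 25 switched WT cells averaged 1.88 ± 0.61%, with 0% of them unmutated, and the 39 switched KO cells 0.549 ± 0.284%, with 33.3% unmutated. Of those 13 unmutated KO cells, 6 belonged to 1 IGHV1-12 clone. Switched other D cells averaged 1.28% in WT, with 6.12% unmutated, and 0.915% in KO, with 14.1% unmutated. Depth moved with genotype: the median number of heavy-chain UMIs of IGHD4-1 cells lay between 18 and 27.5 by WT library and between 36.5 and 41 by KO library. With only cells of at least 5 UMIs the mutation difference kept its side of the threshold, and the part of depth was not tested further.

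The 885 cells formed 427 clones, 196 in WT and 231 in KO, where a clone shares V, J and light genes and CDR3 length with at least 0.85 nucleotide identity of the heavy CDR3. Counting only cells named IGHD4-1, clones of 1 cell made up 74.5% of WT and 72.3% of KO clones. With their cells of another or no D name counted too, 132 of the 427 clones (30.9%) had 2 or more cells. The clone sizes in the next values also count cells of any D name or none. Cells in clones of 2 or more within a library were 50.9, 45.7, 61.5 and 58.6% in WT libraries 1 to 4 and 39.4, 40.6, 51.7 and 47.3% in KO libraries 1 to 4, ranges that overlap (54.2 ± 7.2 and 44.7 ± 5.8%; exact permutation p = 0.143, adjusted 0.2). The difference of -9.45 points was -18.8 by sequence with at least 8 bases, which passed (exact permutation p = 0.0286), and -13.9 without the IGHV11-2 clone (exact permutation p = 0.0571). The within-library difference from other D cells was -2.54 ± 6.40 points (exact permutation p = 0.32). The 4 largest clones of each pool, ranked by their IGHD4-1 cells, held 22.2% of WT and 18.1% of KO IGHD4-1 cells.

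Their heavy CDR3s are shown because they carry the V, J and frame results above. Capitals mark the longest IGHD4-1 piece, letters shared with J included.
WT clone 1: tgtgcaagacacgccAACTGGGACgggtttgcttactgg
WT clone 2: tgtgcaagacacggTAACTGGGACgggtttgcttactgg
WT clone 3: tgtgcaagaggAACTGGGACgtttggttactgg
WT clone 4: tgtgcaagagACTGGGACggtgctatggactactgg
KO clone 1: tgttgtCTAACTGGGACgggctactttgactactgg
KO clone 2: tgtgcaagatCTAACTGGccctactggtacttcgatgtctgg
KO clone 3: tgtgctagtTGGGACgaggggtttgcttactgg
KO clone 4: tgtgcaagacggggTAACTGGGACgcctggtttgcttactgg
WT clones 1 and 2 joined IGHV1-62-2 and IGHV1-71 to IGHJ3, both with the most used light V gene, and had 29 and 28 IGHD4-1 cells, all IGHM and unmutated. WT clone 2 held 63 cells in all, 35 of them with no D name. The shown CDR3 was carried by 15 of the 29 and by all 28. WT clone 3 joined IGHV1-9 to IGHJ3 with IGKV3-4; 24 of its 254 cells carried the IGHD4-1 name and 230 carried none. WT clone 4 joined IGHV1-55 to IGHJ4 with IGKV6-17 (17 of 60 cells named).

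KO clone 1 joined IGHV11-2 to IGHJ2 with IGKV6-15 and kept all 11 D bases. Its 33 cells, 5, 7, 8 and 13 of them in KO libraries 1 to 4, were all IGHM and shared 1 heavy CDR3. IGHV11-2 is a V gene associated with B-1 cells, the innate-like B cells of the body cavities. The other B-1-associated genes examined, IGHV12-3 and IGHV7-1, had 1 and 1 WT and 2 and 1 KO IGHD4-1 cells, and IGHV11-2 was seen in 1 of 3712 WT and 0 of 4683 KO other D cells. Among those same cells IGHV12-3 was carried by 7 in WT and 76 in KO, whereas IGHV7-1 was carried by 7 in WT and 1 in KO. The 31323 paired cells with no D name are not part of these counts. The part of B-1-associated cells in the pool differences was not tested. Leaving the clone out moved the log2 fold change of IGHD4-1 use to -0.33 (edgeR adjusted p = 0.00521). The clone held only KO cells and no WT clone was left out, so this could only lower the KO share. The direction of that shift was thus fixed in advance.

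The remaining large KO clones were of different kinds. KO clone 2 joined IGHV7-3 to IGHJ1 with IGKV2-109 and had 17 IGHM cells, all unmutated. KO clone 3 joined IGHV14-2 to IGHJ3 with IGKV4-59. Its 16 named cells, of 32 in all, held 7 distinct CDR3 sequences, the shown sequence in 4 of the named cells. KO clone 4 joined IGHV1-12 to IGHJ3 with IGKV8-28, and all 14 of its IGHD4-1 cells were IGHG1, 6 of them unmutated.

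Some heavy CDR3s were found in both pools. Of 205 distinct amino acid CDR3s of WT and 237 of KO IGHD4-1 cells, 7 were in both, which is 3.41% of the WT and 2.95% of the KO list; for other D genes 34 were in both, 1.98 and 1.47% of longer lists. The 4 held by the most clones are shown, since their letters tell whether the same protein was written by the same bases.
Shared 1, WT: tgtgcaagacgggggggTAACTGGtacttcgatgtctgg
Shared 1, KO: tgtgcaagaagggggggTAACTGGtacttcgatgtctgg
Shared 2, WT: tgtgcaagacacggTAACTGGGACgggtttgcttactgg
Shared 2, KO: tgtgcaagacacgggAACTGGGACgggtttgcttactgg
Shared 3, WT: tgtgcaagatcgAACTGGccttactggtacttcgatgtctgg
Shared 3, KO: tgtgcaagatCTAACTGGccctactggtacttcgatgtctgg
Shared 4, WT: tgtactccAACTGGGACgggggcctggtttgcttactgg
Shared 4, KO: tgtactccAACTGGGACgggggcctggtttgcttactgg
The first was held by 4 WT and 2 KO clones with IGHJ1 and 3 IGHV genes, IGHV9-3 in both pools. The most common nucleotide sequence of each pool is shown; WT held 4 and KO 2 nucleotide sequences of it, and 2 were in both. In it the marked piece runs into IGHJ1. The second was the CDR3 of 42 WT cells named IGHV1-62-2 or IGHV1-71 and of 7 KO cells, written by different bases in the pools, and always with the same light V gene. The third used IGHV7-3 and IGHJ1 in 1 WT and 18 KO cells. The last, with IGHV14-4 and IGHJ3, had the same nucleotide sequence in 6 WT and 3 KO cells.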

How the data were processed

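Each deposited table lists contigs with a read count and a UMI count, per the file headers; the counts are whole numbers with no normalization, and cells were tallied from the listed contigs. Per the submitters' processing notes, Cell Ranger and R 4.3.1 were used with mm10; the version of the former was not given in the sources used here. Libraries held 11666 to 14732 contigs. The members, lists and named genes were chosen with earlier results of these data known. Named are IGHD4-1, the 3 D genes most like it, the 3 most used D genes, IGHJ1 to IGHJ4, all heavy constant genes, the 8 IGHV and 6 light V genes most used with IGHD4-1, up to 6 IGHV genes called by smallest p, the 4 largest clones of each genotype and the 4 CDR3s held by the most clones in both; IGHD2-6, IGHD2-3, families and other genes given in passing were added after their values were seen. Markers were the IgD constant gene, unmutated IgM, B-1 genes and heavy UMIs over 5 times the library median, which marked 12 of 442 WT and 11 of 443 KO IGHD4-1 cells.

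As the germline of a V gene served its commonest framework 1 to 3 sequence, each clone counted once (genes with at least 20 clones, 77 of 97 IGHV genes). V, then J, then D letters were matched in each junction. The rule of 1 heavy and 1 light contig drops barcodes with a second heavy chain; doublets were not called otherwise. Single values were compared by an exact two-sided permutation test over 70 assignments of 8 libraries (smallest p 0.0286) or over sign flips within libraries (smallest 0.0078), both read at 0.05 unadjusted, and Benjamini-Hochberg adjustment ran over families of 14. For cells per gene the test was the quasi-likelihood one of edgeR 4.0.16 in R 4.3.3, with filterByExpr at a minimum of 5 cells and 10 in all; DESeq2 1.42.0 was an alternative. Steps were tested on simulated data. Tables were built in pandas 2.3.3 and NumPy 2.4.6 under Python 3.11.15, tests in SciPy 1.17.1 and plots in matplotlib 3.10.9. Alternatives were other library sizes, filters, cell sets, clone rules, membership by sequence and leaving out each library. Replicate numbers are shared across genotypes, but same-numbered libraries did not deviate together (correlations -0.167, -0.0786, -0.141 and -0.103 over 70 IGHV genes).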

Additional observations from a re-analysis of the deposited data

Results flagged for a closer look

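In KO library 3, IGHD4-1 cells had a mean IGHV mutation of 0.111%, apart from the 0.209 to 0.219% of the other 3 KO libraries. The glycine difference between IGHD4-1 and other D loops was 1.85 points in KO library 3 and 1.03 to 1.06 in the other 3. Among 58 groups of 4 libraries examined, these 2 had a library that far from the rest, and chance gives about 1 in 20. The difference of IGHD4-1 from other D cells itself differed between the pools for 2 of 14 values: for the IGHJ2 share it was 3.89 points in KO and -9.73 in WT (13.6 points apart), and for CDR3 length -4.19 and -3.76 residues (-0.430 apart). Both had an exact permutation p of 0.0286, adjusted 0.16.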

How the results depend on the processing

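Of 210 values recomputed in another setting, 161 kept their direction and side of the threshold, 21 reversed, 16 no longer passed, 5 newly passed and 7 counts moved; with 1 library left out, 266 of 294 kept theirs. With each clone counted once, KO minus WT was 2.95 points for IGHJ2, 1.82 for IGHJ3 and -0.144 bases between V and J, and IGHD4-1 minus other D was -3.72 (IGHJ2), 0.347 (glycine) and -0.873 points (switched). With at least 6 retained bases, KO minus WT was 0.552 (IGHJ1), 34.2 (IGHG1), 9.73 (unmutated) and -2.65 points (lambda), -0.194 bases between V and J and -0.0884 retained bases; against other D it was -1.61 (IGHJ1) and -0.00774 (mutation). With letters shared with J counted as D, an alternative chosen after seeing the data, KO minus WT was -0.150 bases between V and J, -0.0546 retained bases, 26.9 (IGHG1), 11.6 (unmutated) and -2.44 points (lambda). Taken by sequence with at least 8 bases, KO minus WT was 11 (IGHJ1), -4.40 (IGHJ2), -9.70 (IGHJ3), 3.06 (IGHJ4), -13.0 (asparagine frame), 4.12 (unmutated, no longer passing) and -18.8 points (expanded clones) and -0.213 bases between V and J, with IGHJ1, IGHJ3, the frame and expanded clones now passing. By the same rule, differences from other D cells were -5.86 (IGHJ1), 13 (IGHJ2), -0.0181 (mutation), 1.29 (unmutated) and 2.30 (lambda). Of these, IGHJ1, IGHJ2 and lambda passed (exact permutation p = 0.0234, 0.0078 and 0.0469). Without the IGHV11-2 clone, also chosen after seeing the data, KO minus WT was 6.35 points for IGHJ2 and -0.157 bases between V and J. Against all other paired cells, the differences of IGHD4-1 were -0.00959 (mutation) and -0.416 points (lambda). The cause of these shifts was not tested, beyond the fewer or other cells that each setting holds.

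The log2 fold change of IGHD4-1 use passed no longer with no filter (-0.22), each clone counted once (-0.24), every cell with 1 heavy chain (-0.13), at least 6 retained bases (-0.14), DESeq2 (-0.27) or the replicate block (-0.22, edgeR adjusted p = 0.0726). Replicate numbers did not pair the libraries. The 6 IGHD genes called became 2 with D-named cells as library size, no filter or the replicate block, 3 with TMM or by sequence, and 1 with each clone counted once or DESeq2.

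Leaving out 1 library moved the use from -0.26 to -0.18, the call being lost without WT 1, 2 or 4 or KO 1, 2 or 3, and the IGHD count from 0 (without WT 1) to 5; it was 1 without WT 2, 2 without WT 4 or KO 3, and 3 without KO 1 or KO 2. KO minus WT then lay between 9.99 and 13.9 points for IGHJ2 (lost without any WT library), -9.92 and -5.13 for IGHJ3 (passing without KO 1), -4.50 and -2.62 for lambda (lost without WT 4 or any KO library), 10.9 and 15 for unmutated cells (lost without KO 3), -0.0530 and 0.336 bases between V and J (reversed without KO 4) and 0.138 and 0.335 retained bases (passing without KO 2). Against other D, the lambda difference lay between 0.949 and 2.19 (passing without KO 4) and the unmutated one between -4.12 and -2.70 points (passing without WT 4 or KO 3). The IGHG1 shares rest on only 25 WT and 39 KO switched cells.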
